A study of Mus musculus with 8 samples.

Results

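The cadherins and protocadherins described here were taken by gene symbol, as every probe whose symbol in the annotated matrix begins with Cdh and a number or with Pcdh, leaving out Cdh5. This gave 115 probes of 67 genes, of 41174 probes on the array and 20920 genes with a symbol. By family there were 43 probes of 23 cadherin genes, 43 probes of 32 genes of the 3 protocadherin clusters (Pcdha, Pcdhb and Pcdhg) and 29 probes of 12 protocadherins outside the clusters. The symbol Cdh29 is an older name of Cdhr4 in RefSeq, a cadherin-related gene and not a classical cadherin, and it was kept because the symbol fits the rule.

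Cadherins are calcium-dependent adhesion molecules that span the plasma membrane and bind the same or a related cadherin on the neighbouring cell. The classical cadherins hold adherens junctions together, and their cytoplasmic tails bind p120 catenin and beta-catenin, which is joined through alpha-catenin to actin. Type I members such as E-cadherin (Cdh1) and N-cadherin (Cdh2) mark epithelial and mesenchymal or neural cells, and type II members such as cadherin-11 (Cdh11) are found in mesenchyme and nervous tissue. The protocadherins lack these catenin-binding tails, and the clustered ones are best known for giving single neurons an identity through stochastic promoter choice. In the lung, E-cadherin joins airway and alveolar epithelial cells, and Cdh11 is known from fibroblasts and from fibrotic lung.

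The samples were whole lungs of 8 untreated male mice, C57BL/6 by the labels, 4 wild-type and 4 Scgb3a2-transgenic, and the methods give C57BL/6NCr eggs for the transgenic line. The sample labels give an age of 8 to 10 weeks and the methods one at the lower end of this range. The transgene is a mouse Scgb3a2 coding sequence under the human SP-C promoter, which is active in alveolar type II cells, and the line comes from 1 founder, so that effects of its insertion site cannot be told apart from those of the protein. RNA of each mouse was labelled with Cy5 and hybridized to an Agilent whole mouse genome array against a Cy3-labelled pool made of equal amounts of all samples, with no dye swap. Every value below is a log2 ratio of sample over pool, normalized by loess within the array, or the difference of 2 group means of such ratios, transgenic minus wild-type. The p-values come from limma on the 4 mice of each genotype and are unadjusted unless stated. The labels do not say whether the mice were litter mates, so p-values measure the spread between these mice only. The p-values given for single probes are those of limma or of an exact permutation test over the mice. In whole lung, fewer cells of a type and less RNA per cell cannot be told apart.

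The median Cy5 signal of a spot was 204 to 277.5 over a median local background of 55.5 to 59, and between 79 and 91 of the 115 member probes were well above background on an array. Scgb3a2 itself had log2 ratios of 0.01, -0.39, 0.58 and -0.56 in the wild-type and 1.26, 0.47, 0.70 and 0.74 in the transgenic mice, so that wild-type replicate 3 lay above transgenic replicate 2 (difference 0.88, p under 0.05 by limma). Marker lists of lung cell types were measured in the same way. Of 12 tested probes of alveolar type II genes 11 were lower in the transgenic lungs, with a median difference of -0.51. Of 6 adipocyte probes 5 were lower, with a median of -0.81. Wild-type replicate 3 was the highest mouse for Sftpc (3.09), Sftpb (1.31), Sftpa1 (1.66) and Slc34a2 (1.17 and 1.66), and stood at 0.14 in the Lamp3 probe that was higher. Transgenic replicate 4 was lowest in the 5 lower adipocyte probes, at -1.43 to -0.12, with the other transgenic mice at -0.22 to 1.09. The medians without these mice were not computed. All 7 alveolar type II genes and the 4 alveolar type I genes on the array had a probe well above background on all 8 arrays.

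How many of these adhesion genes could be seen in an adult lung was asked first. In the sample channel 77 of the 115 probes (67%) were well above background on all 8 arrays. The share over all probes with a gene symbol was 79.2%. For 17 member probes (14.8%) no array gave a signal well above background, compared with 8.81% of those with a symbol. By gene, 54 of the 67 had a probe well above background on all 8 arrays, and for 2 genes (Pcdhb11 and Cdh17) no probe was so on any array. By family, 32 of 43 probes of the clustered protocadherins, 29 of 43 of the cadherins and 16 of 29 of the nonclustered protocadherins were well above background throughout, and 2, 7 and 8 probes of these families were so on no array. The 17 dim probes, of 11 genes, had Cy5 signals of 59 to 77.5 on local backgrounds of 48.5 to 66.5, so they hold a bound and no level. On the other side, 9 probes had signals above 1000 on every array.

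**Figure D1:**
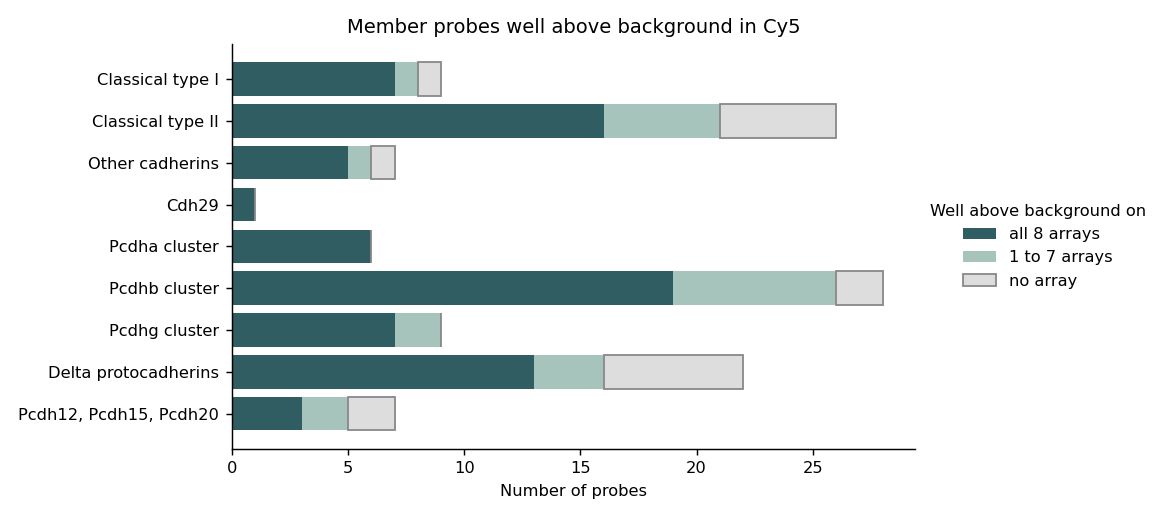
Number of member probes (x axis) in each subfamily (y axis), split by the number of arrays on which the probe was well above background in the Cy5 sample channel. All 6 probes of the Pcdha cluster were so on all 8 arrays, against 13 of 22 probes of the delta protocadherins.

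The array was also asked which member levels differ between genotypes. The test took in those probes with a Cy5 signal well above background on 4 or more arrays and 2 or more values per genotype, which left 86 member probes of 59 genes. None of the 86 was past 1.5-fold with p under 0.05, a share that was 0.23% of the 32645 probes tested on the array. None had a Benjamini-Hochberg adjusted p under 0.05 by limma, and the methods' t-test also gave 0. At an unadjusted p under 0.05 limma named 5 of the 86 member probes against 2.09% of all tested probes. Of these 3 were higher and 2 lower, against 1.12% and 0.971% of all tested probes. The methods' t-test named 3 member probes at that threshold, against 2.65% of all tested probes. With slide as a block in limma 8 member probes had p under 0.05, against 3.72% of all, and 4 of these 8 were among the 5. The groups did not overlap for 4 member probes against 1.98% of all tested probes, with 4 higher in transgenic mice (1.07% of all) and 0 lower (0.904% of all). Of the 86, 50 had a difference above 0, against 50.4% of all tested probes, and the median difference was 0.02, against 0.00 for all.

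The precision of these values bounds what could have been missed in the ratios as normalized here. An offset of 50 was added to each channel after background correction. This draws ratios towards 0 where the signal over background is near or below the offset. There the intervals do not bound a fold in RNA. In the authors' matrix, which has no offset, 6 of the 86 were past 1.5-fold whatever their p. The standard errors ran from 0.09 to 0.28, and for 72 of the 86 probes the 95% interval of the difference lay wholly inside 1.5-fold in either direction. For the other 14 the interval reached 1.5-fold, so it held a change of that size. In 4 of these 14, Cdh18 probes A_52_P795333 and A_52_P630905 and 1 probe each of Pcdh12 and Pcdh20, the interval lay wholly on 1 side of 0. In 44 probes the difference was smaller than 0.1 and in 9 it was larger than 0.3.

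**Figure D2:**
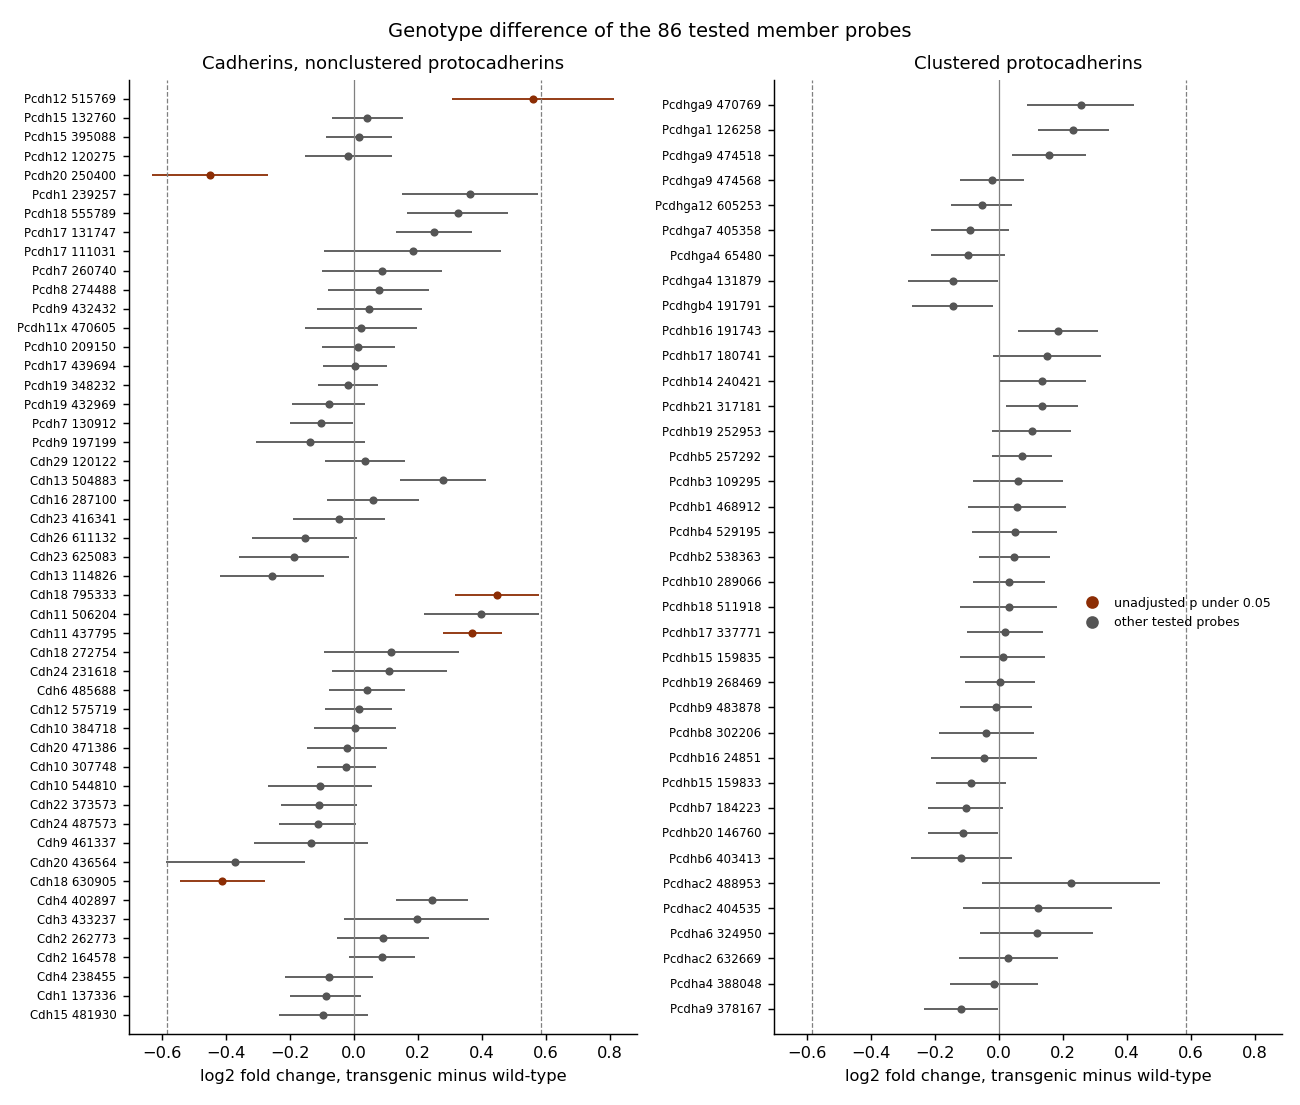
Difference between genotypes (log2 fold change, transgenic minus wild-type, x axis) of each tested probe, named by gene and probe number (y axis), with bars of 1 standard error from limma (n = 4 mice per genotype, fewer where a spot was flagged). Dashed lines mark 1.5-fold. The 37 probes of the clusters lie between -0.14 and 0.26, and the 5 probes in brown are those with an unadjusted p under 0.05.

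Among the classical type I cadherins no tested probe had p under 0.05 by limma without a block, and with slide as a block 1 Cdh4 probe did. E-cadherin, the main adhesion molecule of lung epithelium, had Cy5 signals of 3130 to 7998. Its log2 ratios were -0.04, 0.16, 0.35 and 0.08 in the wild-type mice and -0.09, 0.04, 0.14 and 0.10 in the transgenic mice. The groups overlapped throughout, and the difference of -0.09 (standard error 0.11, 95% interval -0.33 to 0.15) had p = 0.433 by limma and 0.4 by the exact permutation test. Without wild-type replicate 3, the highest mouse here and for Sftpc, Sftpb and Sftpa1, the difference was -0.02. Beside it 11 of 12 alveolar type II probes were lower, 4 of them with p under 0.05 by limma, and so were 6 of 6 alveolar type I probes, of which 0 had p under 0.05. Transgenic replicate 1 was the lowest mouse in each of the 6 type I probes, at -1.63 to 0.45. The other transgenic mice stood at -0.86 to 1.36 there, and the median without transgenic replicate 1 was not computed. The part of alveolar type I and type II cells in the Cdh1 values was not tested. N-cadherin was measured by 2 probes well above background, with differences of 0.09 and 0.09 and overlapping groups (exact permutation p = 0.571 and 0.286). Another N-cadherin probe was above background on no array, with Cy5 signals of 59 to 72, and holds no level. In the fit without the detection filter this dim probe, A_52_P322725, had groups that did not overlap, higher in the transgenic mice (difference 0.23, standard error 0.09, limma p = 0.0305, exact permutation p = 0.0286). That is a difference between signals near background and no measure of a fold in RNA. P-cadherin (Cdh3), known from basal epithelial layers, spread widely in the transgenic mice, from -0.40 to 0.83, and the difference was 0.20 (standard error 0.23), or -0.06 without transgenic replicate 1. M-cadherin (Cdh15), known from muscle precursor cells, was above the pool in all mice with a value, at 0.92 to 1.32, and the difference was -0.10 (standard error 0.14). Of 7 striated muscle probes 5 were lower (median -0.33). In those of Myh6, Tnni3 and Ckm and 1 of Tnnt2, transgenic replicate 1 was the lowest mouse (-0.99 to -0.27). Wild-type replicate 3 was the highest there (0.38 to 1.30), and the median without these mice was not computed. The part of striated muscle in the Cdh15 values was not tested.

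The type II cadherins held 3 of the 5 probes with p under 0.05, on Cdh11 and Cdh18. Cadherin-11, a type II cadherin of fibroblasts and other mesenchymal cells, was measured by 2 probes, both well above background on all 8 arrays. For probe A_52_P437795 the log2 ratios were -1.25, -1.21, -1.24 and -1.06 in the wild-type and -0.88, -0.82, -0.82 and -0.75 in the transgenic mice. Every transgenic mouse lay above every wild-type mouse. The mean was -1.19 ± 0.08 in wild-type and -0.82 ± 0.05 in transgenic mice (SD, n = 4 each), a difference of 0.37 (standard error 0.09), which is 1.29-fold. The limma p was 0.00201, and the exact permutation test gave 0.0286, the smallest that 4 against 4 allow. For probe A_51_P506204 the ratios were -1.64, -1.22 and -1.12 in wild-type replicates 1, 2 and 4, with replicate 3 flagged, and -1.01, -0.95, -1.23 and -0.53 in the transgenic mice. The groups overlapped here through transgenic replicate 3, and the difference of 0.40 (standard error 0.18) had p = 0.0513 by limma and 0.143 by the exact permutation test. It was 0.24 without wild-type replicate 1, -0.01 with normexp fitted on all spots and 0.26 when slide was a block.

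The first Cdh11 probe kept its sign and p under 0.05 when each mouse was left out in turn, with differences of 0.35 to 0.41. Its difference was 0.43 within the first scan day and 0.32 within the second. Fitting the background on all spots, flagged ones included, gave it 0.39 but no p under 0.05. The second probe went from 0.87 on the first scan day to 0.08 on the second, and without wild-type replicate 1 to 0.24. Among mesenchymal marker genes 5 probes had positive and 8 negative differences (median -0.03), and 7 of the 8 genes were seen on all 8 arrays. Summed over the 3 genes with a value on every array, the normalized Cy5 signal was 3720 to 5520 in wild-type and 5260 to 6340 in transgenic mice. These ranges overlap. The sum is governed by the brightest of the 3 genes, so it does not stand for the 8 genes as a set. Col1a1, a collagen gene, gave 0.36 and 0.23 by its probes, the first with p under 0.05 by limma. The part of mesenchymal cells in the Cdh11 values was not tested.

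Cdh18, a type II cadherin of the nervous system, had 3 probes well above background on all 8 arrays, and they did not move together. Probe A_52_P795333 had log2 ratios of 1.52, 1.19, 1.81 and 1.61 in the wild-type and 2.03, 1.89, 2.09 and 1.91 in the transgenic mice. These groups did not overlap, with a difference of 0.45 (standard error 0.13, limma p = 0.00602, exact permutation p = 0.0286). Probe A_52_P630905 went the other way, at 0.50, 0.49, 0.91 and 0.62 in the wild-type and 0.07, 0.10, 0.49 and 0.20 in the transgenic mice. Its difference was -0.41 (standard error 0.13, limma p = 0.00951, exact permutation p = 0.0571), lower on 4 of 4 slides. The probe A_51_P272754 gave 0.12 (standard error 0.21, exact permutation p = 0.657), with transgenic replicate 1 high at 1.24. The file gives the higher probe, A_52_P795333, the record of a cDNA clone and the other 2 probes that of the RefSeq transcript. No direction can be given for the gene as a whole. Of 13 probes of neural and Schwann cell markers 10 were lower (median -0.12), and their part in the Cdh18 values was not tested. The largest spread between tested probes of 1 gene, 0.86, was that of Cdh18. Fitting the background on all spots took A_52_P795333 to 0.13 with no p under 0.05, and this probe had p under 0.05 in 23 of 25 alternatives. A_52_P630905 kept p under 0.05 in all 25, at -0.78 to -0.32.

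**Figure D3:**
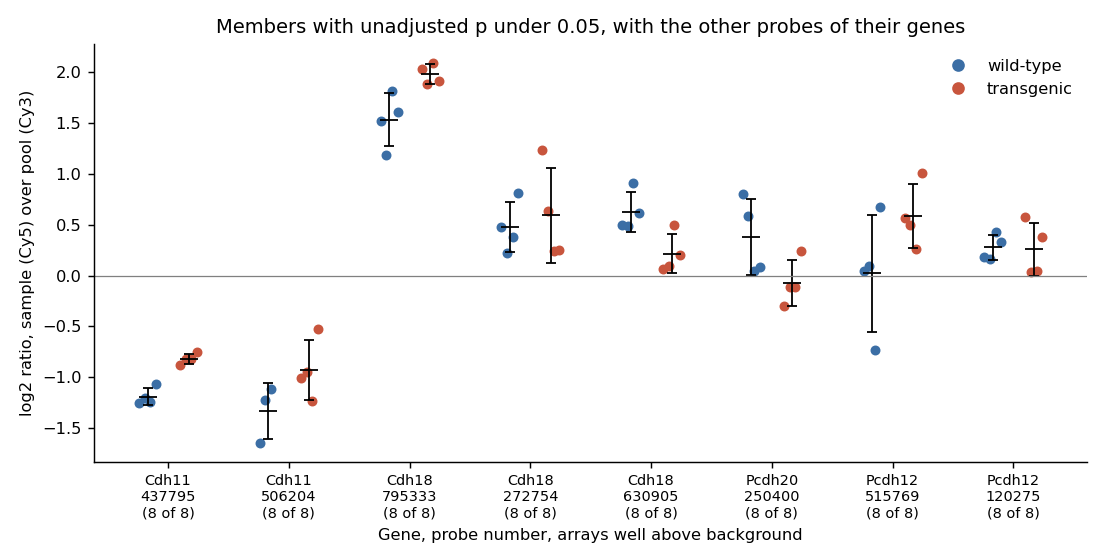
Log2 ratio of sample over pool (y axis) on each array for the 4 genes with a probe at an unadjusted p under 0.05, all probes of each gene shown (x axis). Points are mice, horizontal marks are group means and bars are 1 SD. The genotypes are apart for 1 probe each of Cdh11 and Cdh18, and another Cdh18 probe lies lower in the transgenic mice.

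The tested probes of the other type II cadherins gave no p under 0.05 without a block. Cdh20 was lower by its brighter probe, at -0.37 (standard error 0.22, exact permutation p = 0.171), where wild-type replicate 1 stood at 1.08 and the other 7 mice at -0.25 to 0.39, and the other probe gave -0.02. Without that mouse the difference was -0.17, and with slide as a block it was -0.37 with p under 0.05 by limma. Cdh6 gave 0.04, Cdh9 gave -0.13, Cdh12 gave 0.01 and Cdh22 gave -0.11, each with overlapping groups. For Cdh24 the probes gave 0.11 and -0.11. Cdh7, Cdh8 and Cdh19 had no probe well above background on more than 2 arrays, so they were not among the 86 tested. In the fit without the detection filter their 6 probes lay between -0.13 and 0.09, each with overlapping groups and no p under 0.05 by limma.

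The stretches just before the RefSeq start sites are given for Cdh18, whose probes had opposite signs, for Pcdh20, which had the lowest difference of the members, and for Cdh10, the gene with the most probes among them. CG pairs are the sites at which vertebrate DNA is mostly methylated. The RefSeq promoter table (GRCm38.p6) held 22 of the 67 member genes. Each sequence has the 250 bases before the start site, 5′ to 3′ on the strand of the gene, in lower case with CG pairs in capitals.
Cdh18 (chr15:23036213-23036462, plus strand): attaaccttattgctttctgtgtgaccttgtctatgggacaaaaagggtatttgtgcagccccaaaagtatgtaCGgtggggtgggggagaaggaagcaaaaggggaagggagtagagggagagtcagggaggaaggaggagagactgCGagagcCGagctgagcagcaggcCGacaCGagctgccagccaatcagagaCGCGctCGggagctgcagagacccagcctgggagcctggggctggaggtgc
Pcdh20 (chr14:88471397-88471646, minus strand): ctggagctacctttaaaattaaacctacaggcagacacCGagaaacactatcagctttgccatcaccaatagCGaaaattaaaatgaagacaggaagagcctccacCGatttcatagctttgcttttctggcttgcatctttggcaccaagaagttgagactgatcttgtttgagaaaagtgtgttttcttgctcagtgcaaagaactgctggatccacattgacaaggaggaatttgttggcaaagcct
Cdh10 (chr15:18820079-18820328, plus strand): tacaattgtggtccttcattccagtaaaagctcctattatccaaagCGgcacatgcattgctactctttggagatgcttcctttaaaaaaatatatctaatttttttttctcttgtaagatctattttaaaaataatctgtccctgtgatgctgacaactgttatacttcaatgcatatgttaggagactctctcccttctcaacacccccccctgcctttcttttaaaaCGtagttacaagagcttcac
They hold 8, 3 and 2 CG pairs, against a median of 10 over the 25 member sequences in the table and 6 over all 32851 sequences, of which 92.1% hold at least 1 pair. The motif CACCTG, the E-box bound by the Snail and Zeb repressors, was searched on both strands in the same 250 bases. It was found in 2 of the 22 member genes, Cdh7 and Pcdh15, and in 19.4% of all genes in the table. Cdh1, Cdh2, Cdh11 and the clustered protocadherins were not among the 22, so the motif was not searched in them. None of the 3 printed stretches holds the motif, which says only that these letters are not in this window.

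Of the remaining cadherins, T-cadherin (Cdh13), which is bound to the membrane by a lipid anchor and binds adiponectin, had probes of opposite sign. The brighter one, with Cy5 signals of 1432 to 3574, gave -0.26 (standard error 0.16, exact permutation p = 0.2), with wild-type replicates 2 and 4 flagged and the others at 0.64 and 0.50. Over its 24 alternatives the difference ran from -0.44 to 0.23, above 0 in 1 of them, and p was under 0.05 in 1. The dimmer one gave 0.28 (standard error 0.13, limma p = 0.0632, exact permutation p = 0.0571), higher on 4 of 4 slides and with p under 0.05 by limma with slide as a block, and 0.17 without transgenic replicate 1. Adipoq, which encodes the ligand, had a difference of -0.89 with p under 0.05 by limma. Transgenic replicate 4 stood at -0.84 there and the other transgenic mice at 0.00 to 0.49. The part of fat tissue in the Cdh13 values was not tested. Ksp-cadherin (Cdh16), known from kidney and thyroid epithelium, was above the pool in all 8 mice, at 0.16 to 0.89, and gave 0.06. Cdh23, which forms the tip links of hair cells with Pcdh15, gave -0.19 (-0.06 without transgenic replicate 3) and -0.05. Cdh26 gave -0.15 and Cdh29 gave 0.03.

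Of the nonclustered protocadherins 12 genes were tested by 19 probes. Of these 13 lay above 0 and 6 below, with a median difference of 0.02. Pcdh12, known as an endothelial protocadherin, gave the largest difference of all members. Its probe A_52_P515769 had log2 ratios of 0.04, 0.10, -0.73 and 0.67 in the wild-type and 0.56, 0.50, 0.26 and 1.01 in the transgenic mice. The groups overlapped through wild-type replicate 4, and the difference was 0.56 (standard error 0.25, limma p = 0.0489, exact permutation p = 0.143). The gene's brighter probe, with Cy5 signals of 1429 to 2449, gave -0.02 (standard error 0.14, exact permutation p = 0.943). For the first probe the difference was 1.13 within the first scan day and -0.01 within the second, and 0.31 without wild-type replicate 3, with no p under 0.05. It was 0.56 with slide as a block, again with no p under 0.05. Beside it 5 of 7 endothelial probes had a positive difference (median 0.26), Kdr at 0.63 and Tek at -0.44. In the 5 positive ones, of Cdh5, Tie1, Kdr, Cldn5 and Emcn, wild-type replicate 3 was the lowest mouse, at -0.32, -0.20, -0.11, -0.40 and -0.79. In those of Pecam1 and Tek it stood at 0.13 and 0.30. The median without this mouse was not computed, and the part of endothelial cells in these values was not tested. Over the 25 alternatives the Pcdh12 probe kept its sign and had p under 0.05 in 7.

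Pcdh20 was the lowest of all tested members. Its only probe had log2 ratios of 0.80, 0.59, 0.05 and 0.09 in the wild-type and -0.30, -0.11, -0.11 and 0.24 in the transgenic mice. Wild-type replicates 1 and 2 were high and the other wild-type mice within the range of the transgenic mice. The difference was -0.45 (standard error 0.18, limma p = 0.0289, exact permutation p = 0.0857), lower on 3 of 4 slides. Without wild-type replicate 1 it was -0.31 and with the background fitted on all spots -0.16, both without p under 0.05. The p was under 0.05 in 3 of the 8 fits that left out a mouse and in 17 of the 25 alternatives.

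The delta protocadherins signal through cytoplasmic motifs to actin regulators. By count they were the subfamily with the most dim probes, 6 of 22 on no array. The share was 27.3%, against 28.6% (2 of 7) for the other nonclustered protocadherins. Pcdh1, expressed in airway epithelium and known as an asthma susceptibility gene, gave 0.36 (standard error 0.21, exact permutation p = 0.229). Its lowest mouse was wild-type replicate 3 at -0.61, and without it the difference was 0.14. The brightest probes of Pcdh17 and Pcdh18 gave 0.25 and 0.32 (exact permutation p = 0.0857 and 0.171), that of Pcdh18 0.21 without wild-type replicate 1. For this Pcdh17 probe the transgenic array was the higher on 4 of 4 slides, with p under 0.05 by limma with slide as a block, while the gene's other tested probes gave 0.18 and 0.00. Pcdh19, with Cy5 signals of 1661 to 3733, was nearly flat at 0.10 to 0.30 in the wild-type and 0.14 to 0.22 in the transgenic mice (difference -0.02, 95% interval -0.22 to 0.19). The brightest tested probes of Pcdh7, Pcdh8, Pcdh9, Pcdh10 and Pcdh11x gave 0.09, 0.08, -0.14, 0.01 and 0.02. The other tested probes of Pcdh7 and Pcdh9 had the opposite sign, at -0.10 and 0.05, and that of Pcdh19 gave -0.08.

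The 3 clusters were tested by 37 probes of 28 genes. Of these 22 lay above 0 and 15 below, and 0 had p under 0.05 by limma. In the clusters many variable exons lie in tandem, and transcripts of the alpha and gamma clusters share their constant exons, so a probe in a constant exon could not separate the members. The positions of the probes were not analysed here. The 4 alpha genes were well above background on all arrays and gave brightest-probe differences of -0.12 to 0.12. All 3 probes of Pcdhac2 put wild-type replicate 3 lowest, at -0.81 in the probe with the widest spread, whose difference was 0.23 (standard error 0.28). The 22 beta probes lay between -0.12 and 0.18, all with 95% intervals inside 1.5-fold. With the offset of 50 these intervals do not bound a fold in RNA for the dim probes among them. In the gamma cluster Pcdhga1 had groups that did not overlap, at -0.17, -0.15, -0.05 and -0.08 in the wild-type and 0.38, 0.04, -0.04 and 0.10 in the transgenic mice. The difference was 0.23 (standard error 0.11, limma p = 0.0601, exact permutation p = 0.0286), or 0.14 without transgenic replicate 1. The other gamma probe without overlap, of Pcdhga9, had Cy5 signals of 13374 to 29383 and only 2 values per genotype after flagged spots were left out (difference 0.26, exact permutation p = 0.333). The other Pcdhga9 probes gave 0.16 and -0.02.

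The mean log2 ratio over all mice was within 0.5 of the pool for 71 of the 86 tested probes, above it for 11 probes of 10 genes and below it for 4 probes of 3 genes (Cdh11, Pcdh7 and Pcdhb9). The highest was Cdh18 at 1.75 and the lowest Cdh11 at -1.10. A pool of equal parts of the same 8 RNAs would put the mean ratio near 0, and without a dye swap an effect of the dye on a probe and a difference of the pool cannot be told apart, so these offsets are given as values only. Since the same pool was on every array, they cancel in the differences between genotypes.

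Cdh10 and Cdh4, type II and type I cadherins best known from the nervous system, are the members named in the study's heatmap. The paper also measured several of its most changed genes by qRT-PCR. It reports that all of them changed, or tended to change, in the direction given by the array. Its text does not say whether Cdh10 or Cdh4 was among them. Cdh10 was measured by 7 probes, of which 3 were well above background on all 8 arrays. Those 3 gave -0.11, 0.00 and -0.02 (exact permutation p = 0.629, 1 and 0.629), each with overlapping groups. The probe with a large ratio in the authors' matrix, A_52_P980199, was well above background only on 1 transgenic array. Its raw Cy5 signals were 65, 70, 65.5 and 66 in the wild-type and 71, 71, 68 and 78 in the transgenic mice, on local backgrounds of 53 to 64. On the log2 scale with an offset of 50 the ratios were -0.25, -0.20, -0.24 and -0.21 against 0.07, 0.09, -0.05 and -0.02, which do not overlap (difference 0.25, standard error 0.08, limma p = 0.00798, exact permutation p = 0.0286). Over the 25 alternatives it had p under 0.05 in 23. In the authors' matrix the same probe had -2.73, -2.25, -2.49 and -0.57 against -0.05, 0.41, 0.16 and -0.50, a difference of 2.01, which is 4.03-fold. Since 7 of the 8 arrays did not hold the probe well above background, the 0.25 is a difference between signals near background that include the offset, and it is no measure of the fold in RNA.

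Cdh4 was measured by 3 probes. Those well above background on all 8 arrays gave -0.08 (standard error 0.14, exact permutation p = 0.686) and 0.24 (standard error 0.11, exact permutation p = 0.114). The probe with a large ratio in the authors' matrix, A_52_P181943, was well above background on 1 wild-type array, with raw Cy5 signals of 69, 82, 75.5 and 78 in the wild-type and 70, 82, 74 and 73.5 in the transgenic mice. These ranges overlap almost fully. Its difference was -0.14 (standard error 0.10, exact permutation p = 0.143). The matrix gave -1.05, and with 7 of 8 arrays not well above background neither value measures a fold in RNA.

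**Figure D4:**
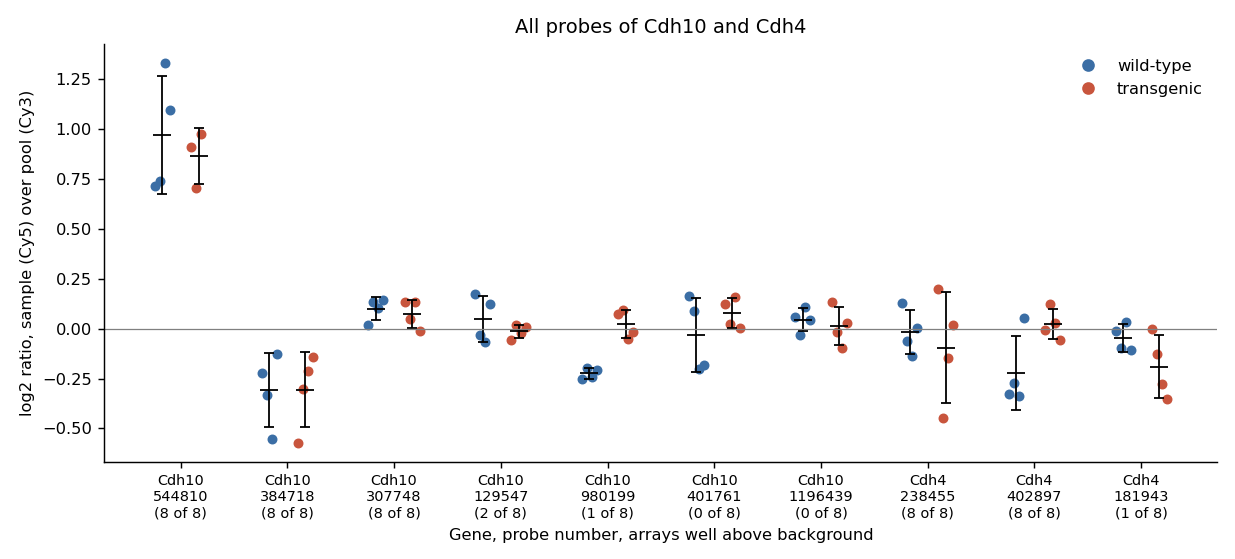
Log2 ratio of sample over pool on each array (y axis) for the 7 probes of Cdh10 and the 3 of Cdh4 (x axis), with the number of arrays on which each was well above background in brackets. Points are mice, horizontal marks are group means and bars are 1 SD. The probes on all 8 arrays overlap between genotypes, and the Cdh10 probe A_52_P980199, seen on 1 array, does not.

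The same probes were then read in the authors' matrix of log2 ratios, which rests on processed signals without an offset. There limma put 9 member probes past 1.5-fold with p under 0.05, against 1.95% of the matrix probes, and the methods' t-test 5, against 1.08%. Higher were 1 probe each of Cdh10, Cdh8, Cdh13, Pcdh10 and Pcdh15, and lower 1 each of Cdh4, Cdh18, Pcdh20 and Pcdhga4. The 5 of the methods' t-test were probes of Cdh10, Cdh8, Cdh4, Cdh18 and Pcdhga4. For Cdh13 this was the dimmer probe and for Cdh18 A_52_P630905, and each gene has another probe of opposite sign above. The probes of Cdh13, Cdh18 and Pcdh20 were well above background on all 8 arrays, and the other 6 were not. None kept an adjusted p under 0.05. Of the 9 probes 5 were well above background on fewer than 4 arrays, and of the 5 this held for 3. Among all probes so called by limma 58.4% were below that number of arrays.

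The distance between matrix and raw values was then read by detection. For probes well above background on all 8 arrays the median size of the difference was 0.11 from raw signals and 0.13 in the matrix, and the sign was the same for 68 of 77. For the 17 probes above background on no array it was 0.08 against 0.45, and for the 12 on 1 to 3 arrays 0.08 against 0.61. In the matrix 12 of the 29 probes seen on fewer than 4 arrays were past 1.5-fold whatever their p, and from raw signals 7 were with an offset of 0. With the offset of 50 none was, where the offset is larger than the signal over background of these probes. Of the 86 probes seen on 4 or more arrays, 6 were past 1.5-fold in the matrix.

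**Figure D5:**
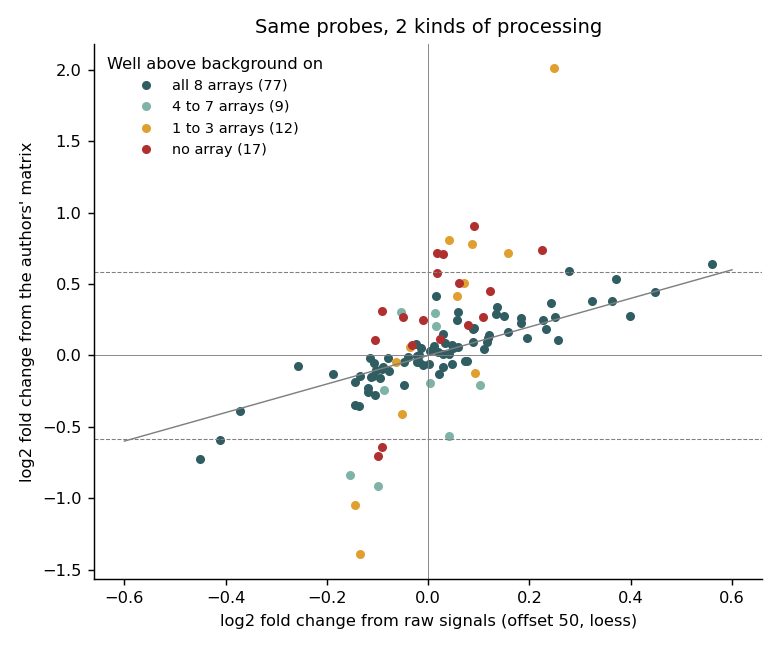
Difference between genotypes of each of the 115 member probes from raw signals with an offset of 50 (x axis) and in the authors' matrix (y axis), both log2, coloured by the number of arrays on which the probe was well above background. The solid line marks equal values and dashed lines 1.5-fold. The 77 probes on all 8 arrays lie nearest the line, and the points at 2.01 and -1.05 are the dim probes of Cdh10 and Cdh4.

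Partners of the cadherins in junctions were read from a list of 73 symbols, of which 62 genes were tested by 113 probes. Of these 57 lay above 0 and 56 below, 0 passed 1.5-fold with p under 0.05 and 3 had p under 0.05 by limma, against 2.09% of all tested probes. The catenins, which join cadherin tails to actin, gave 8 probes higher and 11 lower, all between -0.21 and 0.12, with no p under 0.05. Of 18 desmosome probes 13 were lower, with a median of -0.11. The cadherin-related gene Cdhr2, known from intestinal and renal brush borders, was at -0.14, -0.14, -0.18 and -0.10 in the wild-type and -0.33, -0.57, -0.44 and -0.58 in the transgenic mice. The groups were apart for this probe (difference -0.34, standard error 0.10, p under 0.05 by limma), and the gene's other probe gave -0.02. Of the transcriptional repressors of E-cadherin, 9 of 10 probes were higher, with a median of 0.18. Wild-type replicate 3 was the lowest mouse in the tested probes of Zeb1 and Twist2 (each -0.58). It was also lowest in the higher probes of Zeb2 (-0.87 to -0.24), and other wild-type mice were lowest for Snai1, Snai2 and Twist1. The median without wild-type replicate 3 was not computed. Snai2 gave 0.25 with groups that did not overlap (p under 0.05 by limma). For Zeb2, 1 of 5 probes gave 0.31 (p under 0.05 by limma), and the other 4 lay between -0.23 and 0.15.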

How the data were processed

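Whole-lung RNA of 8 mice (4 per genotype) was hybridized to 8 two-colour arrays. The authors deposited each array's spot intensity values from Agilent Feature Extraction (10.10.1.1 per the file headers, 11.0.1.1 in the submitters' processing notes), with detection and outlier flags. The matrix that the authors deposited holds log2 values for 40052 probes, and in all 39811 with a single spot these equal processed Cy5 over processed Cy3 within 0.001.

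Median signals and backgrounds were read in R (4.3.3) and handled in limma (3.58.1). Normexp with an offset of 50, fitted on unflagged spots, was followed by loess within arrays, and repeated spots were averaged, leaving out control and outlier-flagged spots. Tested were 32645 of 41174 probes, those well above background in Cy5 on at least 4 of 8 arrays with at least 2 values per genotype. Values of dimmer probes come from a fit without the detection filter. Genotypes were compared by limma, two-sided, with Benjamini-Hochberg adjustment over all tested probes, and single probes by an exact two-sided permutation test, whose smallest p is 0.0286. The code was tested on simulated data. Beside these, 26 other settings were tried, among them slide (4) and scan day (2) as blocks. The number of arrays limits the precision.

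Named are Cdh4 and Cdh10, the brightest probe of each gene well above background on all 8 arrays (the less familiar by range), probes past 1.5-fold with p under 0.05 here or in the matrix, and the 5 largest differences each way. The members and lists were chosen with earlier results of these data known. Deviations of same-numbered mice correlated at 0.32, 0.25, -0.08 and -0.21, so the numbers do not pair the mice. Deviations of the 2 mice on a slide correlated at 0.32, 0.25, 0.30 and 0.07. The p-values printed come from a fit without slide unless slide is named. Promoters were read with Python (3.11.15) from the RefSeq table. Probe sequences and proteins were not analysed here.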

Additional observations from a re-analysis of the deposited data

Results flagged for a closer look

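Among 127 groups of 4 mice, over 69 named probes, 10 held a mouse far from the other 3 by Dixon's criterion at 95%, where chance gives about 6.35. The values are log2 ratios of sample over pool. In the wild-type group the mouse apart was replicate 4 for Cdh4 probe A_52_P402897 (0.0556), replicate 3 for Pcdhb1 (0.592), replicate 2 for Pcdhb2 (-0.295), replicate 1 for Pcdhb4 (0.547), replicate 2 for Pcdhb7 (0.283) and replicate 3 for the dim Cdh8 probe A_52_P67775 (0.17). In the transgenic group it was replicate 4 for Pcdhb3 (0.379), replicate 1 for Pcdhb5 (0.0377), replicate 3 for Pcdhb7 (-0.285) and replicate 1 for Pcdh11x (1.04). In the main setting none of these probes had p under 0.05 by limma. The Cdh4 probe had it in 7 of 25 alternatives, among them without wild-type replicate 4 (0.335) and with slide as a block, and the Cdh8 probe in 3, which included the authors' matrix.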

How the results depend on the processing

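Past 1.5-fold with p under 0.05, all probes numbered 75 (41 higher, 34 lower) in the main setting. Alternatives gave 221 (normexp with offset 0), 371 (Agilent processed signals), 783 (the authors' matrix by limma), 433 (the matrix by the methods' t-test), 27 (the methods' t-test on the values used here), 33 (normexp fitted on all spots, 10 higher), 136 (slide as a block) and 130 (replicate block). Median-centring gave 29 higher and 76 lower, and Cy5 alone 31 and 54. Leaving out a mouse gave 49 to 167, with 49 without wild-type replicate 3, 167 without wild-type replicate 4, and 116 and 153 without transgenic replicates 3 and 4. The members' count of 0 became 2 with offset 0, 4 with Agilent processed signals, 9 on the matrix by limma and 5 there by the methods' t-test, and was 0 to 1 with a mouse left out (1 without wild-type replicate 4 or transgenic replicate 3). The junction partners' count of 0 became 2, 2, 3 and 2 in these 4 settings. No setting gave an adjusted p under 0.05. The replicate block, with numbers that do not pair the mice, left 0 members past 1.5-fold. Among named probes and settings 1585 values moved by less than the spread between mice and stayed on their side of the threshold (127 of them, none with p under 0.05, with the other sign), 68 moved further, 55 gained p under 0.05, 31 lost it and no call reversed. Except where a setting changes the probes or mice used, the cause was not tested. Signal over background limits the 29 member probes below the test filter.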
